A study of Mus musculus with 6 samples.

Results

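The genes described are the 10 genes of lower glycolysis in the table, Aldoa, Aldoc, Tpi1, Gapdh, Pgk1, Pgam1, Eno1, Eno2, Eno3 and Pkm, which cover the steps from aldolase to pyruvate kinase. They were taken by symbol, all 10 were found among 55291 distinct symbols, and all 10 passed the filter on low values (mean of 10 or more). The itaconate group was 3 RNA-seq libraries of wild type C57BL/6 splenic CD4+ T cells, taken from naive mice, labelled with the division dye CFSE and kept for 48 h in RPMI with 5 mM itaconate. The NaCl group was 3 libraries of the same cells with 5 mM NaCl in place of itaconate. Both groups also received anti-CD3, anti-CD28 and 200 U of IL-2, so every library is of stimulated cells and none is of resting cells. In the table the NaCl group is coded NAC, a code that no source used here explains and that could also stand for N-acetylcysteine. The labels name NaCl as the sole other treatment, and all NaCl values rest on that reading. Whether each library is a mouse or culture of its own is not in the labels, so p-values measure only the spread among these libraries, and that spread may be technical. The labels give neither the age of the mice nor how CD4+ cells were isolated.

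The upper part of glycolysis spends ATP to prepare glucose for cleavage, and the lower part turns the resulting triose phosphates into pyruvate and earns ATP and NADH. Aldolase cuts fructose 1,6-bisphosphate, triosephosphate isomerase interconverts the products, and GAPDH reduces NAD+ while adding phosphate. Phosphoglycerate kinase and pyruvate kinase make ATP, with the mutase and enolase between them. T cells raise glycolysis when they are stimulated, and many of these genes are known targets of the hypoxia-inducible factor HIF-1 and of MYC. Itaconate is a dicarboxylate that activated macrophages make from a TCA cycle intermediate.

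With itaconate, at least 1 gene fell at each step of lower glycolysis. Of the 10 genes 8 fell, with log2 fold changes from −1.29 (Eno1) to −0.38 (Aldoa), and the 2 that rose were the low enolase genes Eno2 (1.54) and Eno3 (1.29). The calls come from limma on log2(value + 1), at a Benjamini-Hochberg adjusted p under 0.05 across the 13170 genes tested. In the same test 36% of all genes tested were called, 17.8% lower with itaconate and 18.2% higher. The median log2 fold change of the 10 genes was −0.82, against −0.001 over all tested genes (itaconate over NaCl). The values of the itaconate and NaCl libraries did not overlap for any of the 10 genes, where 48.4% of all tested genes did not overlap, 24.2% with itaconate wholly lower and 24.2% with itaconate wholly higher. The summed level of the 10 genes was 1.35%, 1.33% and 1.42% of the library total with itaconate, against 2.42%, 2.60% and 2.68% with NaCl. That is 1.36% ± 0.047 with itaconate and 2.57% ± 0.13 with NaCl (SD, n = 3 each; exact permutation test, two-sided, p = 0.1, the smallest that 3 against 3 can give). In bulk samples, fewer cells of a type and less RNA of a gene per cell cannot be told apart.

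**Figure D1:**
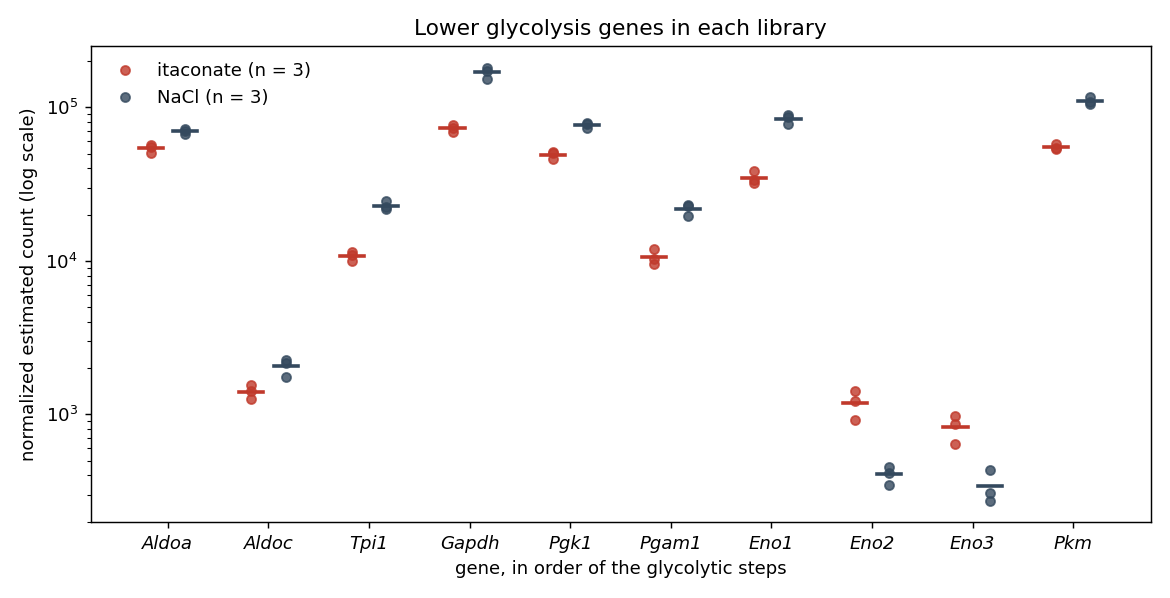
Normalized estimated count (log axis) of the 10 lower glycolysis genes, in the order of the steps, with 1 point per library and a bar at the mean of 3. The itaconate points lie below the NaCl points for 8 genes and above them for Eno2 and Eno3.

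The groups were sequenced to similar depth. Estimated total reads were 20074299 to 22755248 with itaconate and 21015690 to 24144999 with NaCl. The genes with the fewest reads were Eno3, with 625 to 1045 estimated reads with itaconate and 273 to 480 with NaCl, and Eno2, with 900 to 1519 with itaconate and 381 to 453 with NaCl. Of the 6 T cell markers listed, 4 rose with itaconate in limma and Cd3g fell (log2 fold change −0.44). The 4 were Cd3e (0.35), Cd4 (0.51), Cd28 (0.31) and Lck (0.27). Over all tested genes 18.2% rose and 17.8% fell. Summed values of the 6 markers were 51860 to 53600 with itaconate and 41110 to 46690 with NaCl. Summed B cell markers (5 genes, none at 0 in every library) were 173 to 303 with itaconate and 224 to 304 with NaCl, and the 2 CD8 markers summed to 308 to 365 with itaconate and 363 to 408 with NaCl. The 7 myeloid markers summed to 46.8 to 81.9 with itaconate and 7.03 to 27.0 with NaCl, most of it Itgam, which was 39.3 to 70.1 with itaconate and 7.03 to 24.5 with NaCl. Itgam was the only one of the 7 that passed the filter, and S100a8 and S100a9 were at 0 in every library. Lyz2, Cd14, Csf1r and Adgre1 were under 10 in every library. NK and erythroid markers summed to at most 2.05 and 3.74 in any library, with Hba-a1 and Hbb-bt at 0. The platelet markers Pf4 and Ppbp were at 0, and Itga2b was 59.9 to 111 with itaconate and 55.1 to 114 with NaCl. The part of the T cell and Itgam differences in the results was not tested.

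Aldolase opens the lower pathway, and its genes had the smallest falls in point estimate. Aldoa, the main aldolase gene of most tissues (chromosome 7, 126795234 to 126800751, minus strand; GRCm38), had 54942, 56434 and 50361 normalized estimated counts with itaconate, against 67182, 71994 and 70428 with NaCl. All itaconate libraries lay below all NaCl libraries, by a log2 fold change of −0.38 ± 0.090 (SE; 95% interval −0.57 to −0.18; limma adjusted p = 0.006). A second entry named Aldoa, an upstream gene model, had 3.22 to 27.1 with itaconate and 11.2 to 13.1 with NaCl and was not used. Aldoc, the aldolase known from brain (chromosome 11, 78322968 to 78327781, plus strand), had 1546, 1410 and 1252 with itaconate, against 1751, 2245 and 2158 with NaCl. Here too the groups were apart, and the log2 fold change was −0.54 ± 0.12 (limma adjusted p = 0.00314). The log2 difference of Aldoc from Aldoa was −5.27 ± 0.10 with itaconate and −5.10 ± 0.14 with NaCl (SD, n = 3 each), and the groups overlapped (exact permutation p = 0.2, two-sided). Per kilobase of exon, Aldoc made up 2.27% ± 0.16 of summed aldolase with itaconate and 2.55% ± 0.24 with NaCl (exact permutation p = 0.2, two-sided).

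Triosephosphate isomerase and GAPDH act next, and both genes fell to under 50% of the NaCl level on the scale of the fit. Tpi1 (chromosome 6, 124810586 to 124814296, minus strand) had 10853, 9941 and 11356 with itaconate, against 21622, 22492 and 24648 with NaCl. Its log2 fold change was −1.10 ± 0.087 (limma adjusted p = 3.31e-06). Gapdh, which encodes the dehydrogenase that makes NADH (chromosome 6, 125161715 to 125166467, minus strand), had 73864, 68819 and 76301 with itaconate, against 152471, 173188 and 181444 with NaCl. The lowest NaCl library held nearly double the highest itaconate library, and the log2 fold change was −1.21 ± 0.10 (limma adjusted p = 5.43e-06). Gapdh has many processed pseudogenes, among which RSEM may divide its reads. There were 42 entries that shared at least 50% of their 31-base sequences with Gapdh, and they made up 1.92% to 2.22% of the summed level of Gapdh and these entries in each library. With them added the log2 fold change was −1.21. Iffo1, which overlaps the end of Gapdh on the other strand, had 701 to 751 with itaconate and 399 to 505 with NaCl. The strand setting is not known, so reads of the overlap cannot be assigned to either gene with certainty.

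Phosphoglycerate kinase makes the first ATP of the pathway, and phosphoglycerate mutase moves the phosphate before enolase acts. Pgk1 (chromosome X, 106187100 to 106203699, plus strand) had 45874, 51452 and 50391 with itaconate, against 72922, 77978 and 79194 with NaCl. The groups were apart, and the fall was 1.56-fold (log2 fold change −0.64 ± 0.091; limma adjusted p = 0.00019). Pgam1 (chromosome 19, 41911923 to 41918660, plus strand) had 9556, 10334 and 11924 with itaconate, against 19712, 22661 and 23057 with NaCl, a log2 fold change of −1.04 ± 0.10 (limma adjusted p = 1.19e-05). Its pseudogene Pgam1-ps2, whose 31-base sequences all occur in Pgam1, made up 2.86% to 4.09% of their summed level, and the log2 fold change of the sum was −1.05.

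Aldolase and enolase are the steps with several genes here. The aldolase genes both fell, while the enolase genes moved in opposite directions. Eno1, the alpha enolase of most tissues (chromosome 4, 150236721 to 150248879, plus strand), had 33740, 31930 and 38239 with itaconate, against 77483, 86090 and 89386 with NaCl. The log2 fold change was −1.29 ± 0.099 (95% interval −1.50 to −1.07; limma adjusted p = 2.81e-06), the lowest value among the 10 genes. Eno2, the gamma enolase known as neuron-specific enolase (chromosome 6, 124760053 to 124769673, minus strand), had 1421, 1220 and 924 with itaconate, against 416, 455 and 346 with NaCl. Every itaconate library was above every NaCl library, with a log2 fold change of 1.54 ± 0.16 (95% interval 1.19 to 1.88; limma adjusted p = 2.24e-05). Eno3, the beta enolase of muscle (chromosome 11, 70657202 to 70662513, plus strand), had 977, 867 and 641 with itaconate, against 307, 274 and 436 with NaCl, and its log2 fold change was 1.29 ± 0.19 (95% interval 0.88 to 1.71; limma adjusted p = 0.000242). Among the itaconate libraries, replicate 1 was highest and replicate 3 lowest for both genes.

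Within each of the groups Eno2 and Eno3 varied more than the 8 genes that fell, in fold between libraries. The highest itaconate library exceeded the lowest 1.54-fold for Eno2 and 1.52-fold for Eno3, and 1.07-fold for Pkm to 1.25-fold for Pgam1 among the others. Among the NaCl libraries it was 1.315-fold for Eno2 and 1.587-fold for Eno3, and 1.072-fold for Aldoa to 1.282-fold for Aldoc among the others. Relative to Eno1, Eno2 was higher in each itaconate library, with a log2 difference of −4.88 ± 0.43 with itaconate and −7.70 ± 0.27 with NaCl (SD, n = 3 each). The change in that difference was 2.82, and for Eno3 against Eno1 it was 2.58 (exact permutation p = 0.1 each, the smallest possible; adjusted p = 0.15 over 3 such differences). No 31-base sequence was shared between the transcripts of Eno1, Eno2 and Eno3. Eno1b, a near copy of Eno1, averaged 118 with itaconate and 254 with NaCl and fell (log2 fold change −1.11 ± 0.20; limma adjusted p = 0.0011), and 87.9% of its 31-base sequences also occur in Eno1.

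In level, Eno1 still made up most of the enolase transcripts. Per kilobase of all annotated exons, summed enolase was 7168 ± 491 with itaconate and 15960.0 ± 1170.0 with NaCl (SD, n = 3 each). Eno2 and Eno3 together were 12.1%, 11.3% and 7.37% of that sum in the itaconate libraries, against 1.81%, 1.57% and 1.91% in the NaCl libraries. The groups did not overlap (exact permutation p = 0.1, the smallest possible; adjusted p = 0.133 over 4 shares). The share depends on the length used, since all annotated exons of Eno1 span 5379 bases and its longest transcript 2027. Per kilobase of the longest transcript it was 5.36% ± 1.39 with itaconate and 0.86% ± 0.063 with NaCl.

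**Figure D2:**
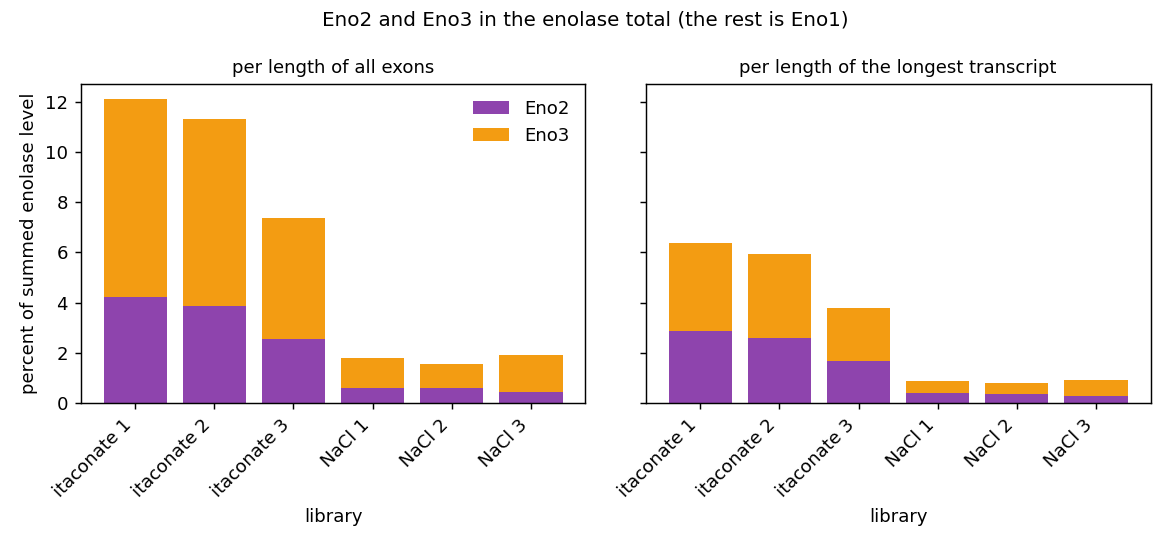
Percent of summed enolase level held by Eno2 and Eno3 in each library, per length of all exons (left) and per length of the longest transcript (right), with Eno1 as the rest. The 3 itaconate bars stand above the 3 NaCl bars on both scales, and itaconate replicate 3 is the lowest of its group.

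Pyruvate kinase ends the pathway with its second ATP. Pkm (chromosome 9, 59656368 to 59679375, plus strand) had 54229, 53530 and 57289 with itaconate, against 104916, 108676 and 116201 with NaCl. The log2 fold change was −0.998 ± 0.091 (limma adjusted p = 8.58e-06), and the itaconate libraries differed from each other by no more than 1.07-fold. Values are per gene, so the M1 and M2 forms of the enzyme, which come from alternative exons of Pkm, cannot be told apart. The splicing factors known to favour the M2 exon, Ptbp1, Hnrnpa1, Hnrnpa2b1 and Srsf3, did not pass in limma. Their log2 fold changes were −0.18, −0.14, −0.08 and −0.26 (adjusted p = 0.0904 to 0.572, with 2 of 4 at an unadjusted p under 0.05). When replicate number was fitted as a block Ptbp1 and Srsf3 were called (adjusted p = 0.0421 and 0.0257), and Srsf3 was also called without NaCl replicate 3. Under quantile normalization the log2 fold change of Ptbp1 was 0.0046. Gm49759, an unclassified gene model on the same strand inside Pkm, had 989 to 1360 with itaconate and 1043 to 1828 with NaCl.

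The 8 falls differed in point estimate between the steps, and these differences were not tested. Relative to the NaCl mean, each itaconate library lay between −1.40 and −0.87 on the log2 scale for Tpi1, Gapdh, Pgam1, Eno1 and Pkm, and between −0.74 and −0.31 for Aldoa, Aldoc and Pgk1. The ranges of these sets did not overlap, but the grouping was made after the values were seen and was not tested. Within the NaCl group replicate 1 was the lowest library for all 8 genes. Levels per kilobase of exon ran in NaCl from Gapdh (40900.0 ± 3611), Pgk1 (34180.0 ± 1482), Aldoa (24000.0 ± 843) and Pkm (21980.0 ± 1149) through Eno1, Pgam1 and Tpi1 to Aldoc, Eno3 and Eno2 (86.2 ± 11.8). With itaconate Pgk1 came first (21940.0 ± 1320.0), and Aldoa (18520.0 ± 1087) and Gapdh (17660.0 ± 923) followed without differing beyond their spread. Eno3 (476.5 ± 98.4) and Aldoc (429.9 ± 45.1) also did not differ beyond their spread with itaconate. Per length of the longest transcript, Gapdh was still first with NaCl, but Pkm and Aldoa came before Pgk1. With itaconate the order on that length was Aldoa, Pgk1, Pkm and Gapdh. The order among the high genes thus depends on the length used.

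Promoters of 5 of the genes are shown, of 3 that fell and of Eno2 and Eno3, chosen where the window lies outside the annotated gene. Each is the 250 bases before a transcription start (RefSeq, GRCm38.p6), at the start nearest to the gene's first base in GENCODE, read 5′ to 3′ on the gene's strand. Capitals mark the cores ACGTG and GCGTG of the hypoxia response element, to which HIF-1 binds, on either strand (CACGT and CACGC are their reverse). The windows are Pgk1 at chrX:106186850-106187099, plus strand, Pgam1 at chr19:41911621-41911870, plus strand, Eno1 at chr4:150236458-150236707, plus strand, Eno2 at chr6:124769674-124769923, minus strand, and Eno3 at chr11:70656926-70657175, plus strand.
Pgk1: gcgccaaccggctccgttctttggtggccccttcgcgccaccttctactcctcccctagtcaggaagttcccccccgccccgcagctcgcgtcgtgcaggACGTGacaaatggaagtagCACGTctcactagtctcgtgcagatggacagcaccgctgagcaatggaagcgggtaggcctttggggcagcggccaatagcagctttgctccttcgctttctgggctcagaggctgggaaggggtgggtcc
Pgam1: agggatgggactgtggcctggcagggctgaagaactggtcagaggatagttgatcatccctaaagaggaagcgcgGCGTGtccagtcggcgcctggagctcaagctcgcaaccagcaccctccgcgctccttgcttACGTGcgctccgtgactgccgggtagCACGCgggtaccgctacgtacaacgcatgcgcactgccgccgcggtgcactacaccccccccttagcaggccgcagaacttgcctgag
Eno1: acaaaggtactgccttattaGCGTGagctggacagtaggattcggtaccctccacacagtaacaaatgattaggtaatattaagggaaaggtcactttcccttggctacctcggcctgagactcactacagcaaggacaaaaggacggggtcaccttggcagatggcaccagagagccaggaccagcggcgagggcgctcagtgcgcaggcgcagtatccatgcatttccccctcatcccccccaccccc
Eno2: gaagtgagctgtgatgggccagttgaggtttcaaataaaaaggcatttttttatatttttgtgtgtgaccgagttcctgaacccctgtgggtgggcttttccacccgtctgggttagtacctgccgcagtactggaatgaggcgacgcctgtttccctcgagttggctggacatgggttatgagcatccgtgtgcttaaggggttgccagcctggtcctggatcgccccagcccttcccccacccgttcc
Eno3: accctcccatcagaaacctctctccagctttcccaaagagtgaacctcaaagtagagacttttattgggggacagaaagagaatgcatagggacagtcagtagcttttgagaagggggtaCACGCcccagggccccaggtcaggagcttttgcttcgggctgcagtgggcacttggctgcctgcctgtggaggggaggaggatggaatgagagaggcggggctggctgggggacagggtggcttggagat
In Pgk1 there are 2 ACGTG cores, which start 150 and 131 bases before the transcription start. Pgam1 has 1 ACGTG and 2 GCGTG cores, and Eno1 and Eno3 have 1 GCGTG core each. The windows of the later Eno1 starts, not shown, hold 2 GCGTG cores each. The Eno2 window holds neither core, and neither do the windows nearest the gene start of Aldoa, Tpi1 and Pkm, which fell. So 6 of the 10 nearest windows hold a core and 4 do not. RefSeq lists 16 starts for the 10 genes. The 250 bases before a start held ACGTG in 5 of these 16 windows, from Aldoa, Pgam1, Pgk1 and Pkm, and in 16.6% of 32851 mouse promoters. Either core was in 12 of 16 windows and in 38.6% of all promoters, and no window held the E-box CACGTG, which contains ACGTG and was in 6.02% of all. This search was chosen after the results were seen. Some windows of the same gene overlap, a match is not a bound site, and no match says only that these letters are not in this window.

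Genes before and after these steps were described from lists written with earlier results known. Of 12 tested genes of glucose uptake, phosphorylation and phosphofructokinase control, 9 fell and 1 rose. Under the alternatives 6 to 9 fell. Over all tested genes 17.8% fell and 18.2% rose. The glucose transporter gene Slc2a3 had a log2 fold change of −1.79 ± 0.13, hexokinase Hk2 −1.76 ± 0.13, and the phosphofructokinase genes Pfkl and Pfkp −1.23 ± 0.12 and −0.91 ± 0.081 (limma adjusted p = 1.76e-06 to 1.44e-05). Pfkfb4, a phosphofructokinase regulator, rose (0.44 ± 0.13; limma adjusted p = 0.0205), a call that ended without itaconate replicate 1, NaCl replicate 1 or NaCl replicate 3 (range over alternatives 0.015 to 0.0594).

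Where pyruvate goes next, genes were called in both directions, as they were over all tested genes (17.8% lower and 18.2% higher). Of 18 tested genes of lactate and pyruvate use, 6 fell and 5 rose, with a median log2 fold change of −0.15. The lactate dehydrogenase subunit gene Ldha changed by −1.20 ± 0.085 (28604 in itaconate and 65536 in NaCl), the lactate exporter gene Slc16a3 by −1.25 ± 0.14, the pyruvate dehydrogenase kinase gene Pdk1 by −1.14 ± 0.085 and the pyruvate carboxylase gene Pcx by −1.21 ± 0.15 (limma adjusted p = 1.73e-06 to 6.13e-05). The genes that rose were Ldhb (0.47 ± 0.12), Pdk2 (1.01 ± 0.25), the pyruvate dehydrogenase subunit Pdha1 (0.38 ± 0.092) and the pyruvate dehydrogenase phosphatases Pdp1 (0.80 ± 0.21) and Pdp2 (0.57 ± 0.13; limma adjusted p = 0.00485 to 0.0105 for these genes). The Pdp1 call ended without itaconate replicate 2 (adjusted p = 0.0524; range over alternatives 0.00134 to 0.0524), and the Pdk2 call without the intensity trend (adjusted p = 0.0536).

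Genes of the pathways that branch off between aldolase and pyruvate kinase mostly did not pass. Of 11 tested, 1 rose and 0 fell in limma (1 of the 10 that did not pass had an unadjusted p under 0.05, Bpgm). Over all tested genes 18.2% rose and 17.8% fell. Gpd1l, a glycerol 3-phosphate dehydrogenase-like gene, averaged 745 with itaconate and 361 with NaCl and rose, with a log2 fold change of 1.05 ± 0.14 ( limma adjusted p = 1e-04). Bpgm, which makes 2,3-bisphosphoglycerate, was at 0.33 ± 0.14 (adjusted p = 0.085), the serine synthesis gene Psat1 at −0.20 ± 0.099 (adjusted p = 0.141; called lower with a replicate block, adjusted p = 0.0278) and the PEP carboxykinase gene Pck2 at −0.16 ± 0.099 (adjusted p = 0.236). Of the other isozyme genes of lower glycolysis, Gapdhs, Pgk2, Eno4 and Pklr were under the filter, and Pgam2 averaged 12.1 with itaconate and 10.3 with NaCl and did not pass.

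**Figure D3:**
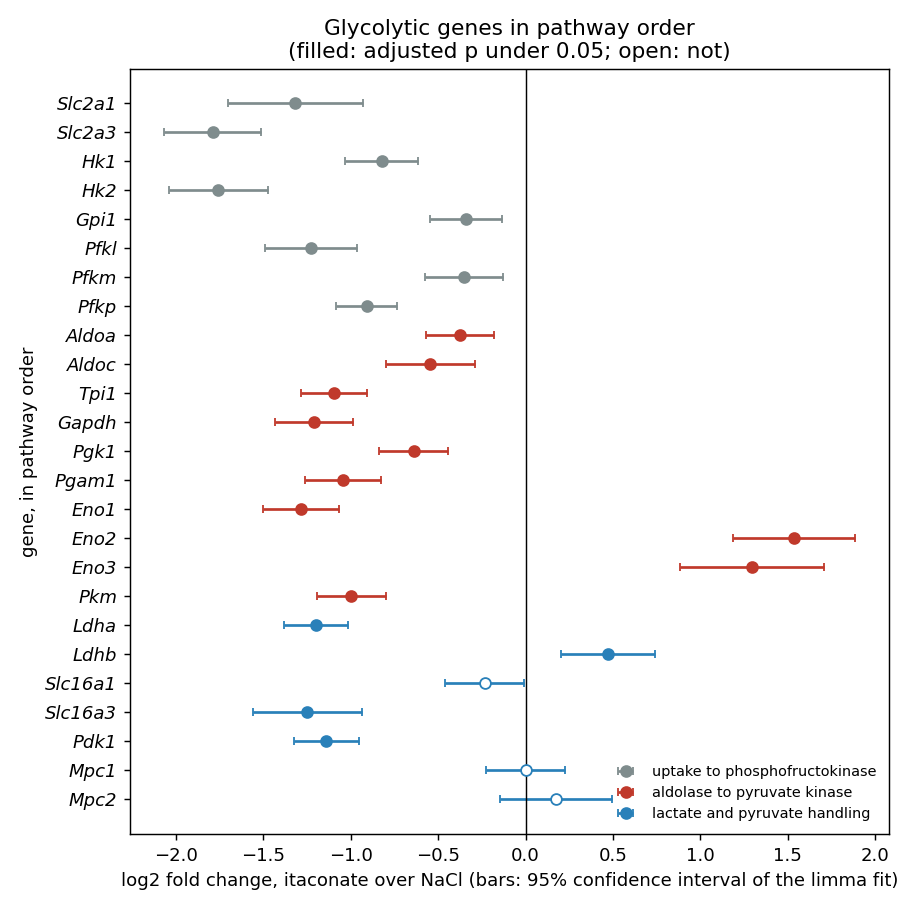
Log2 fold change (itaconate over NaCl) of glycolytic genes in pathway order, with 95% intervals of the limma fit, filled where the adjusted p was under 0.05. Of the 10 lower glycolysis genes, 8 lie left of 0 between −1.29 and −0.38, and Eno2 and Eno3 lie right of it at 1.54 and 1.29.

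Some regulators of glycolytic genes were called as well. Of 11 tested, 5 fell and 2 rose, where 17.8% of all tested genes fell and 18.2% rose. Under the alternatives 4 to 5 fell and 1 to 3 rose. The prolyl hydroxylase genes Egln1 and Egln3, which mark HIF for destruction and are themselves HIF targets, changed by −1.63 ± 0.14 and −2.13 ± 0.23 (limma adjusted p = 6.5e-06 and 3.11e-05), and Myc by −0.55 ± 0.11 (adjusted p = 0.0021). Mlxip, a glucose-responsive transcription factor gene, rose by 0.42 ± 0.084, and Arnt, the HIF partner, by 0.32 ± 0.10 (adjusted p = 0.00213 and 0.0266). The Arnt call ended without either of itaconate replicates 1 and 2 or NaCl replicates 2 and 3, and without the intensity trend (range over alternatives 0.00574 to 0.127). Hif1a, named after its values were seen, changed by −0.66 ± 0.13 (20693 with itaconate and 32223 with NaCl; limma adjusted p = 0.00234).

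Gapdh and Pgk1 belong to the genes often used to normalize expression measurements. Of the 15 such genes described here 4 fell, Gapdh, Pgk1, Hprt (−0.64 ± 0.085) and Actb (−0.36 ± 0.095; limma adjusted p = 0.000126 for Hprt and 0.00999 for Actb). Over all tested genes 17.8% fell, and Gapdh and Pgk1 are among the 10 lower glycolysis genes. The Actb call ended without itaconate replicate 2 (adjusted p = 0.0607; range over alternatives 0.00323 to 0.0607). The other 11 did not pass, among them the ribosomal protein genes Rplp0 (−0.01, 95% interval −0.21 to 0.19) and Rps18 (0.04, −0.17 to 0.25) and the complex II gene Sdha (−0.06, −0.22 to 0.11). These 3 were chosen after their values were seen. The difference between Gapdh and Rplp0 in log2 fold change was not tested.

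**Figure D4:**
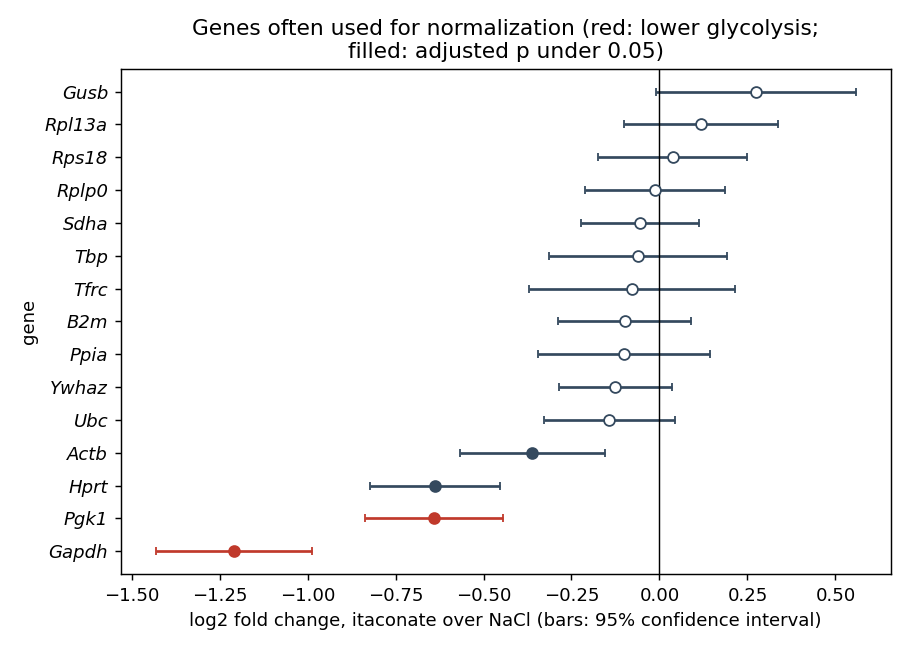
Log2 fold change (itaconate over NaCl) with 95% intervals of 15 genes often used for normalization, filled where the limma adjusted p was under 0.05. Gapdh, at −1.21, is the lowest, and Pgk1 and Hprt follow, both at −0.64.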

How the data were processed

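The deposited file holds, for each gene symbol, the authors' normalized estimated count in each library, a signal of 0 or more. The submitters' processing notes name mm10 as the build and STAR (2.7.0f) and RSEM (1.3.0) as tools. Annotation, strand setting, size factor tool and filters: not given in the sources used here. After undoing the scaling, 80.0% to 82.2% of a library's values came out whole (tolerance 0.02 reads). Reads could therefore not be recovered as integers, and no count model was used.

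Columns were assigned to samples by treatment code and replicate number. For symbols on several of the 55401 entries, the entry with the highest mean was kept. The fit used limma (3.58.1; R 4.3.3) on log2(value + 1) (intensity trend, no covariate, two-sided, genes with a mean of at least 10). A fold change on this scale understates that of genes with low values. Positions, lengths and 31-base sequences came from GENCODE release M21 (GRCm38), and promoters from RefSeq. Members, lists and tests were chosen with earlier results of these data known, and some listed genes are not reported here. Genes named are the members, up to 4 genes of each list with the smallest p and those that moved against its majority, and the 6 genes most like the members. The alternatives were pseudocounts, filters, scalings, variance models, a replicate block, summed near copies, another length and each library left out.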

Additional observations from a re-analysis of the deposited data

How the results depend on the processing

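All 10 lower glycolysis genes kept their direction and their call under each of the 18 alternatives to the limma fit, with a highest adjusted p of 0.036. The log2 fold change ran over them from −1.36 to −1.23 for Eno1, from 1.40 to 1.71 for Eno2 and from 1.16 to 1.49 for Eno3. Of 71 other listed genes, 15 crossed the threshold under some alternative, in either direction. Of the 32 that were called as reported, 0 changed sign, and of the 39 that were not, 15 did. Genes called over the whole table ranged from 1755 to 2780 lower and from 1729 to 2854 higher. Replicate numbers are shared between the groups, but the labels tie them to no mouse or day. Same-numbered libraries deviated together with correlations of 0.147, 0.038 and 0.13. Because the labels give no such tie, the numbers were not taken to pair the libraries. Whether they do is not known from the labels. Each itaconate library correlated best with the NaCl library of its own number, which is a hint from the data and not from the design. With the replicate number as a block, 2780 genes were called lower and 2854 higher, and the 10 genes kept their calls. With the length of the longest transcript, the enolase share with itaconate minus that with NaCl was 2.04 percentage points for Eno2 (3.01 with all exons), 2.46 for Eno3 (5.49) and 4.49 for both (8.50). The change comes from the lengths alone. Of the 10 genes, depth limits Eno2 and Eno3 most.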

Other observations

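The chromosomal neighbours of the lower glycolysis genes were looked at as well. This choice was made after the results were seen, and it takes the nearest tested protein-coding gene on each side that does not overlap the gene, so that Iffo1 (0.68 ± 0.13, beside Gapdh) and Spsb2 (1.21 ± 0.83, beside Tpi1; not passed) are left out. Beside the 8 genes that fell there were 16 such neighbours, of which 2 fell, 5 rose and 9 did not pass in limma. Among the 5 is Eno2, beside Tpi1, and without it 4 of 15 rose, where 17.8% of all tested genes fell and 18.2% rose. The 2 that fell were Parp6 (−0.71 ± 0.14) and Senp8 (−0.89 ± 0.27), both beside Pkm. Spag5, a spindle gene that ends 511 bases before Aldoc on the same strand, rose by 1.10 ± 0.12, and the condensin gene Ncapd2, which lies 1540.0 bases from Gapdh, rose by 0.89 ± 0.10. Gpr157 (1.34 ± 0.27) and Rere (0.41 ± 0.079), on either side of Eno1, rose as well. Eno2 and Tpi1 lie 40913 bases apart on chromosome 6 with log2 fold changes of 1.54 and −1.10. Usp5, 723 bases from Tpi1, was at 0.06 ± 0.10 (adjusted p = 0.67), and Atn1, 3529 bases from Eno2 on the same strand, rose by 0.87 ± 0.087.

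The genes outside the lists whose values followed the mean standardised profile of the 10 genes most closely over the 6 libraries were Trip4, Sars, Ube2q1, Stk40, Arid3a and Slc26a10 (Pearson r of 0.997 to 0.994 as a description, across libraries that form 2 groups). Of 9454 candidate genes with a mean of at least 100, 62 had an r above 0.98. The candidates leave out the members, the listed genes, and names of predicted genes, clones and some pseudogenes. Sars, the cytosolic seryl-tRNA synthetase gene, had 10052, 9973 and 9707 with itaconate, against 12632, 13208 and 13240 with NaCl. Among the members themselves r ran from 0.956 for Aldoc to 0.989 for Gapdh among those that fell, and was −0.934 for Eno2 and −0.855 for Eno3. Each member is part of the profile it was compared with, so these r values are partly built in.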
